A study of Mus musculus with 18 samples.

Results

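The 9 genes described here encode proteins of the nucleolus and of the box C/D small nucleolar ribonucleoprotein (snoRNP), the enzyme complex that places 2′-O-methyl groups on RNA. They were chosen by name, with earlier results of these data known. The members are Fbl, Nop56, Nop58, Ncl, Npm1, Nolc1, Larp7, Ruvbl1 and Ruvbl2. They are 9 of 19736 genes in the table, with 3433 of its 1825851 positions. The study used ribose oxidation sequencing (RibOxi-seq), in which poly(A)-enriched RNA is fragmented and oxidized so that fragments ending in a 2′-O-methylated nucleotide keep a 3′ end that can be ligated, and each count is 1 read whose 3′ end lies at that position. The cells were 4T1, a mouse mammary carcinoma line, all transduced with lentiviral constructs for mCherry and Renilla luciferase and kept in puromycin. The 3 genotypes were wild type (4T1 WT) and the CRISPR/Cas9 knockouts Snord67KO-1 and Snord67KO-2, each grown from a single cell, and each genotype had 3 oxidized libraries. Snord67 is a box C/D small nucleolar RNA (snoRNA) that guides methylation of U6, an RNA of the spliceosome. Each knockout is 1 clone, so a difference that loss of Snord67 makes and one that separates clones for any other reason cannot be told apart.

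In a box C/D snoRNP, a guide snoRNA pairs with its target and the methyltransferase fibrillarin (Fbl) modifies the paired nucleotide, while Nop56 and Nop58 hold the guide in place. The AAA+ ATPases Ruvbl1 and Ruvbl2 act earlier, in the assembly of the complex. Nolc1 is a phosphoprotein that shuttles between nucleolus and Cajal body and binds snoRNPs, Ncl (nucleolin) and Npm1 (nucleophosmin) are abundant nucleolar proteins of ribosome production, and Larp7 binds 7SK RNA and helps the methylation of U6.

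Library totals ranged from 212463 to 737219 counts, and the 3 Snord67KO-2 libraries, with 212463 to 423278 counts, were shallower than every other library. The table marks some positions as mispriming, and these held 1.38% to 17.8% of the counts of a library, with the highest share in 4T1 WT replicate 2. Over the stretch of Snord67 itself 1 count was listed in all 9 libraries, in Snord67KO-1, so the knockout could not be checked at this depth. Summed epithelial markers reached 430 to 502 CPM (counts per 1000000 counts of a library) in WT, 734 to 944 in Snord67KO-1 and 819 to 968 in Snord67KO-2, with counts for 8 of 8 genes. Summed markers of fibroblasts (5 of 5 genes with counts) lay at 1.24 to 6.72 CPM in WT, 10.7 to 18.8 in Snord67KO-1 and 0 to 3.19 in Snord67KO-2. This sum rests mostly on Pdgfra, with 33 counts over the 9 libraries. Col1a1, Col1a2, Col3a1 and Dcn held 4, 2, 1 and 2 counts, so the sum does not show a fibroblast profile. The ranges for leukocyte markers (4 of 5 genes with counts) were 1.34 to 5.78, 3.78 to 29.3 and 0 to 11.9 CPM, and for endothelial markers (4 of 4 genes) 3.71 to 9.63, 13.4 to 32.8 and 0 to 12.8 CPM. The epithelial sum was thus higher in both clones than in WT and the fibroblast and endothelial sums were highest in Snord67KO-1, and the part of these values in what follows was not tested. A gene total counts 3′ ends that withstood oxidation, so the amount of an RNA and the share of its fragments that end so cannot be told apart in it. Fewer cells of a type and less RNA per cell cannot be told apart in bulk RNA.

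The rows cover some of these genes only in part. Positions are given on GRCm38. Ncl (ENSMUSG00000026234.12, chromosome 1, 86344719 to 86359400, minus strand) was listed up to position 86351164, so that the last 2 of the 14 exons of its main transcript were covered and 12 were not. Most of the covered part is 3′ UTR. Larp7 (ENSMUSG00000027968.11, chromosome 3, 127536714 to 127553349, minus strand) was listed up to 127544276, without 8 of the 13 exons of its main transcript. Nop56 (ENSMUSG00000027405.16, chromosome 2, 130274430 to 130279313, plus strand) was listed up to 130277961, without the last 2 of the 12 exons. The other 6 genes had a listed stretch that reached every exon of their main transcript. They were Fbl (ENSMUSG00000046865.7, chromosome 7, 28169710 to 28179269), Nop58 (ENSMUSG00000026020.9, chromosome 1, 59684971 to 59719044), Npm1 (ENSMUSG00000057113.13, chromosome 11, 33152287 to 33163206), Nolc1 (ENSMUSG00000015176.11, chromosome 19, 46075863 to 46085530), Ruvbl1 (ENSMUSG00000030079.15, chromosome 6, 88465409 to 88497572) and Ruvbl2 (ENSMUSG00000003868.14, chromosome 7, 45421760 to 45438096).

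Npm1 held 4068 counts over the 9 libraries, more than the other members combined. The others held 584 (Nop58), 336 (Ncl), 293 (Nop56), 279 (Fbl), 230 (Nolc1), 110 (Ruvbl1), 103 (Ruvbl2) and 52 counts (Larp7). To set levels of different genes side by side, unmarked counts in the listed exons of the main transcript were divided by their length. In WT this gave 557 ± 36.5 CPM per kb for Npm1 (SD, n = 3 here and below), 75.5 ± 10.6 for Nop58, 37.2 ± 11.2 for Nop56 and 35.4 ± 6.42 for Fbl. Nolc1 followed at 15.8 ± 4.73, Ncl at 12.7 ± 2.88, Ruvbl2 at 12.0 ± 1.40, Ruvbl1 at 11.3 ± 3.30 and Larp7 at 6.61 ± 1.88 CPM per kb. Npm1 and Nop58 stood apart from their neighbours in this order by more than the spread. So did Fbl from Nolc1. Nop56 and Fbl did not differ beyond the spread, nor did any neighbours from Nolc1 down to Larp7. The value for Ncl rests on its last 2 exons, with a length of 6188 bases. The coding sequence ends at base 2298 of the 8202 bases of its transcript, so most of this length is 3′ UTR. Of the 336 Ncl counts, 96 lay in the coding sequence, so the place of Ncl in this order depends on the length of that UTR.

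**Figure D1:**
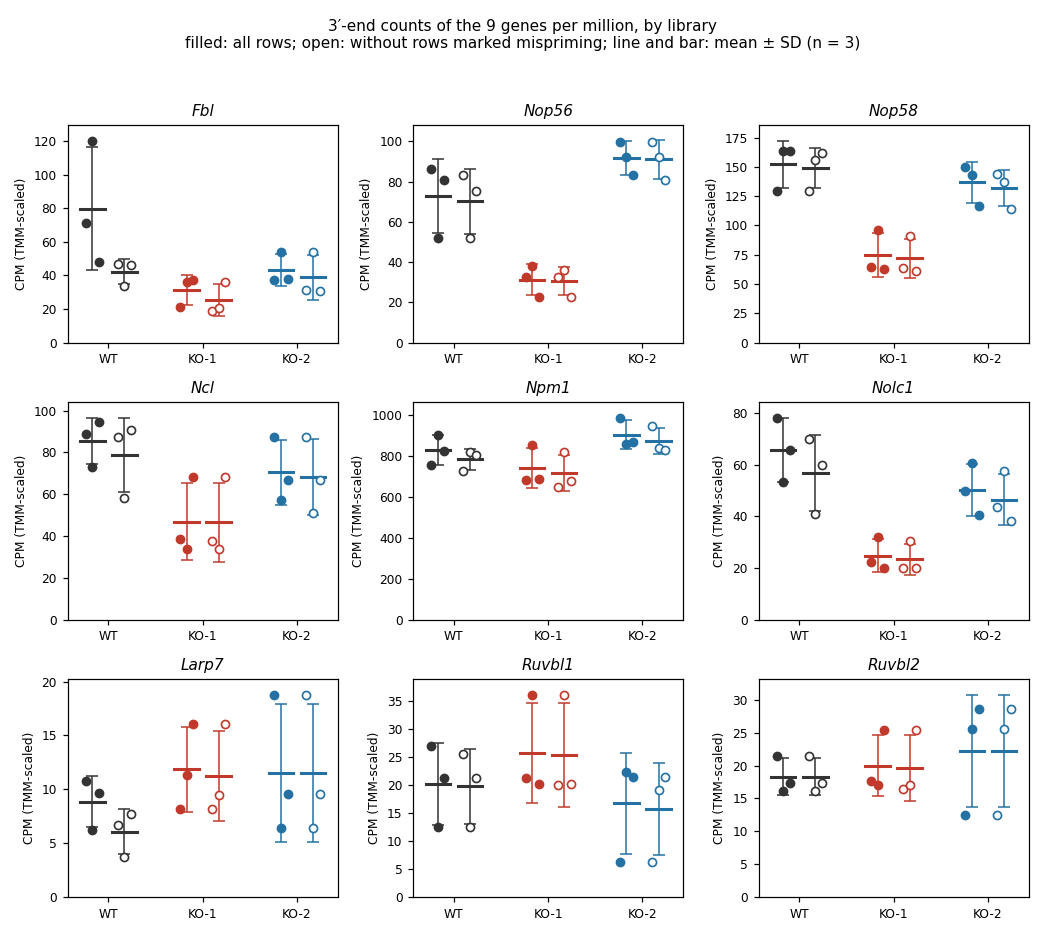
CPM of each gene, on the vertical axis, with library totals scaled by the trimmed mean of M values (TMM), in the 3 libraries of each genotype, with all rows (filled points) and without rows marked mispriming (open points). Lines and bars give the mean and SD, and Fbl in WT falls from 79.9 to 42.2 CPM on average when marked rows are left out, while Nop56 changes little (73.0 and 70.2 CPM).

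Of the 8 members that passed the filter on low counts, 5 were lower in Snord67KO-1 than in WT: Fbl, Nop56, Nop58, Ncl and Nolc1. Over all 6291 genes tested, 7.73% were called lower in this comparison (edgeR quasi-likelihood test, Benjamini-Hochberg adjusted p under 0.05). The members were chosen with earlier results of these data known, so shares of members beside shares of all genes are a description. The median log2 change of the 8 members was -0.90, beside -0.03 over all genes tested. Npm1, Ruvbl1 and Ruvbl2 did not pass, and Larp7 was not tested for lack of counts. None of the 8 was called in Snord67KO-2 against WT, where 0.747% of all genes were called lower, and 1 had an unadjusted p under 0.05 (Fbl). DESeq2 also called none there. The Snord67KO-2 libraries were the shallowest, and the 95% intervals of the log2 change there reached down to -1.66 for Fbl, -0.92 for Ncl and -0.67 for Nop58, so the missing calls do not show equal levels. With the average of both clones, Fbl and Nolc1 were lower, beside 5.39% of all genes. In terms of single libraries, the same 5 members had all Snord67KO-1 libraries below all WT libraries, as had 17% of all genes tested. The clones were also compared with each other, and Nop56 alone of the 8 differed, being higher in Snord67KO-2, where 1.64% of all genes were called higher. These comparisons share the WT libraries, or a clone, and are not independent of each other.

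Fibrillarin, the methyltransferase of the complex, had 71.3, 120.1 and 48.2 CPM in WT replicates 1 to 3. It had 21.1, 35.9 and 37.4 CPM in Snord67KO-1 and 37.5, 54.2 and 38.1 CPM in Snord67KO-2. All Snord67KO-1 libraries lay below all WT libraries, and 1 Snord67KO-2 library overlapped WT. The log2 change was -1.35 ± 0.32 (SE) in Snord67KO-1 (edgeR, adjusted p = 0.00937) and -0.90 ± 0.36 in Snord67KO-2 (adjusted p = 0.180), and -1.13 ± 0.28 for the average of both (adjusted p = 0.0171).

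Much of the Fbl signal came from 1 marked position. Position 28179194, in the 3′ UTR within exon 9, held 97 of the 279 Fbl counts. The WT libraries had 17, 66 and 1 counts there, those of Snord67KO-1 had 2, 7 and 1, and those of Snord67KO-2 had 1, 0 and 2. WT replicate 2 therefore carried most of it, and 72.2% of the Fbl counts of that library were at marked rows (95% Wilson interval 62.5% to 80.1%, counting error only). Without marked rows, Fbl had 47.1, 33.4 and 46.2 CPM in WT, 18.8, 20.8 and 36.1 in Snord67KO-1 and 31.2, 54.2 and 30.9 in Snord67KO-2. Snord67KO-1 replicate 3 then lay within the WT range. Fbl was still called lower in Snord67KO-1 (log2 change -0.83 ± 0.28, edgeR, adjusted p = 0.0397), where 8.66% of 5748 genes tested were called lower. For the average of both clones the change shrank to -0.56 ± 0.24 and was no longer called (adjusted p = 0.145, 5.41% of all genes called lower), and without WT replicate 2 it was -0.73 (adjusted p = 0.0980). With all rows, the average was also lost without Snord67KO-2 replicate 3 (-1.07, adjusted p = 0.0508), and the Snord67KO-1 call without replicate 1 of that clone (-1.09, adjusted p = 0.0735).

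Nop56 and Nop58, the paired scaffold proteins of the snoRNP, were both lower in Snord67KO-1. Nop56 had 86.1, 52.0 and 80.9 CPM in WT, 32.8, 37.8 and 22.7 CPM in Snord67KO-1, and 99.9, 92.4 and 83.3 CPM in Snord67KO-2. Its Snord67KO-1 libraries lay below every other library. The log2 change was -1.19 ± 0.27 in Snord67KO-1 (edgeR, adjusted p = 0.00603) and 0.31 ± 0.26 in Snord67KO-2 (adjusted p = 0.563). Between the clones, Nop56 was higher in Snord67KO-2 than in Snord67KO-1 by 1.505 ± 0.28 on the log2 scale, a 2.84-fold difference (edgeR, adjusted p = 0.00874). Marked rows held 2.39% of the Nop56 counts, and without them this difference was 1.46 (adjusted p = 0.00206, 2.84% of all genes called higher). Without Snord67KO-2 replicate 2 it was 1.49, with an adjusted p of 0.0583. The Snord67KO-1 call was lost without replicate 3 of that clone (-0.98, adjusted p = 0.0510). Of the 293 Nop56 counts, 71 lay in or next to Gm23650 and 29 in or next to Snord110, snoRNAs inside this gene. The changes without these rows were not tested.

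Nop58 had 129, 164 and 164 CPM in WT, 64.5, 96.5 and 62.8 CPM in Snord67KO-1, and 150, 143 and 117 CPM in Snord67KO-2. Snord67KO-1 again lay below every other library, whereas Snord67KO-2 overlapped WT. The log2 change was -1.0 ± 0.23 in Snord67KO-1 (edgeR, adjusted p = 0.00644), -0.18 ± 0.23 in Snord67KO-2 (adjusted p = 0.734) and -0.59 ± 0.19 for the average (adjusted p = 0.0562). Without marked rows the average change was -0.79 and was called (adjusted p = 0.00714). The difference between the clones, 0.82 ± 0.24, did not pass (adjusted p = 0.0667), but did without WT replicate 2 (adjusted p = 0.0241). Without Snord67KO-1 replicate 1 the change in that clone was -0.90 and missed the threshold (adjusted p = 0.0519), and without replicate 2 the average passed it (adjusted p = 0.0417).

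Nolc1 had 78.0, 53.2 and 65.5 CPM in WT, 22.3, 32.2 and 20.04 CPM in Snord67KO-1, and 49.96, 60.6 and 40.4 CPM in Snord67KO-2. Its Snord67KO-1 libraries were below all others, and Snord67KO-2 overlapped WT. Of the 8 tested members Nolc1 had the largest fall, by 1.38 ± 0.27 on the log2 scale in Snord67KO-1 (edgeR, adjusted p = 0.00251), a 2.61-fold difference. It was called in each of the 9 fits that left out 1 library, with log2 changes from -1.55 to -1.23. The change was -0.40 ± 0.28 in Snord67KO-2 (adjusted p = 0.473) and -0.89 ± 0.23 for the average (adjusted p = 0.0199), and DESeq2 did not call the average (adjusted p = 0.0827). The average was also lost without WT replicate 1, Snord67KO-1 replicate 1 or 3, or Snord67KO-2 replicate 3 (adjusted p from 0.0506 to 0.0911), and the difference between the clones (0.98 ± 0.31, adjusted p = 0.0893) passed without WT replicate 2 (adjusted p = 0.0489).

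Ncl, counted over its last 2 exons, had 88.7, 73.1 and 94.4 CPM in WT, 38.7, 34.05 and 68.1 CPM in Snord67KO-1, and 87.4, 57.4 and 66.6 CPM in Snord67KO-2. The Snord67KO-1 libraries lay below WT, with replicate 3 close to the lowest WT library. The log2 change was -0.80 ± 0.26 in Snord67KO-1 (edgeR, adjusted p = 0.0448), -0.32 ± 0.28 in Snord67KO-2 (adjusted p = 0.595) and -0.56 ± 0.23 for the average (adjusted p = 0.123). The Snord67KO-1 call was the weakest of the 5. DESeq2 did not make it (adjusted p = 0.145), and it was lost on leaving out WT replicate 1 or 3, Snord67KO-1 replicate 1 or 2, or any Snord67KO-2 library, with adjusted p from 0.0536 to 0.208.

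**Figure D2:**
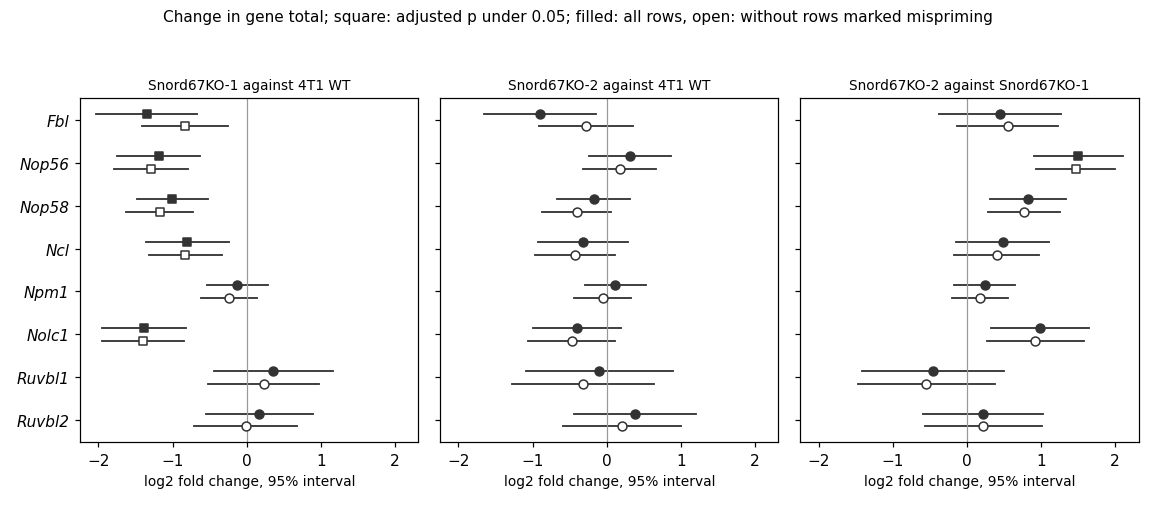
log2 fold change of gene totals with its 95% interval (horizontal axis) for the 8 members tested, in 3 comparisons. Filled symbols use all rows, open symbols leave out marked rows, and squares mark adjusted p under 0.05 (edgeR): 5 genes are squares in Snord67KO-1 against WT with and without marked rows, none is in Snord67KO-2 against WT (without marked rows, 0.922% of all genes were called lower there), and Nop56 is in the comparison of the clones.

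Npm1, the member with the most counts, did not show this difference. It had 758, 904 and 828 CPM in WT, 684, 857 and 688 CPM in Snord67KO-1, and 987, 861 and 868 CPM in Snord67KO-2. WT overlapped both clones, and the lowest Snord67KO-2 library lay just above the highest of Snord67KO-1. The log2 change was -0.13 in Snord67KO-1 (95% interval -0.53 to 0.28, edgeR, adjusted p = 0.705) and 0.11 in Snord67KO-2 (interval -0.30 to 0.52, adjusted p = 0.805). Both intervals lie within a 2-fold change in either direction.

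The ATPases of snoRNP assembly had few counts. Ruvbl1 had 26.9, 12.4 and 21.2 CPM in WT, 21.1, 35.9 and 20.04 CPM in Snord67KO-1, and 6.25, 22.3 and 21.4 CPM in Snord67KO-2, where the lowest value is a single count. Ruvbl2 had 21.5, 16.1 and 17.3 CPM in WT, 17.6, 17.02 and 25.4 CPM in Snord67KO-1, and 12.5, 25.5 and 28.5 CPM in Snord67KO-2. The genotypes overlapped for both genes. In Snord67KO-1 the log2 change was 0.36 for Ruvbl1 (95% interval -0.44 to 1.16, edgeR, adjusted p = 0.561) and 0.17 for Ruvbl2 (interval -0.55 to 0.89, adjusted p = 0.780).

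Larp7, which assists U6 methylation, had between 2 and 12 counts per library. These gave 10.8, 6.19 and 9.63 CPM in WT, 8.21, 11.3 and 16.0 CPM in Snord67KO-1, and 18.7, 6.38 and 9.52 CPM in Snord67KO-2. The genotypes overlapped, and the 6 knockout libraries (11.7 ± 4.77 CPM) did not differ from the 3 WT libraries (8.86 ± 2.38 CPM) beyond their spread (two-sided exact permutation test, p = 0.405). Without marked rows the means were 11.4 ± 4.86 and 6.05 ± 2.08 CPM (p = 0.0714, same exact test). Both p treat the libraries of 2 clones as 6 replicates and do not cover the spread between clones. Marked rows held 7 of the 52 Larp7 counts, all at position 127544168 in exon 9, with 3, 2 and 1 counts in WT, 1 in Snord67KO-1 replicate 2 and 0 in the other 5 libraries.

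Single positions carried an uneven part of the counts. In Npm1, position 33156692 in the coding sequence of exon 8, unmarked, held 627 of 4068 counts. It had 60, 144 and 38 counts in WT, 119, 117 and 43 in Snord67KO-1, and 19, 25 and 62 in Snord67KO-2. Every library thus had it as a peak. The Nm score, the count of a position over the mean of its 2 neighbours with 0 set to 1, was 53.8 ± 37.3 in WT, 48.8 ± 25.9 in Snord67KO-1 and 28 ± 29.5 across the Snord67KO-2 libraries. The share of Npm1 counts at this position was 13.1% ± 5.84, 18.2% ± 8.95 and 12.8% ± 3.92 in the same order, differences within the spread between libraries.

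Position 33156047 of Npm1, marked, in the coding sequence of exon 9, had 13, 32 and 3 counts in WT, 16, 8 and 2 in Snord67KO-1, and 1, 5 and 6 in Snord67KO-2. The highest value was again in WT replicate 2. In Nop58, position 59705721, unmarked, in the coding sequence of exon 10, held 107 of 584 counts, with 11, 34 and 17 in WT, 11, 12 and 2 in Snord67KO-1, and 2, 10 and 8 in Snord67KO-2. These 3 positions were the members' only ones to reach 10 counts in 3 or more libraries. Relative to the rest of their gene, none of the 3 was called. For the average of both clones the log2 changes were 0.26 ± 0.50 (Npm1 33156692), -0.72 ± 0.65 (Npm1 33156047) and -0.31 ± 0.56 (Nop58), with adjusted p of 0.798, 0.541 and 0.783 (edgeR). No position of 2051 tested was called in any comparison (0%), although 360 had an unadjusted p under 0.05 when both clones were averaged, 111 for Snord67KO-1 and 353 for Snord67KO-2.

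**Figure D3:**
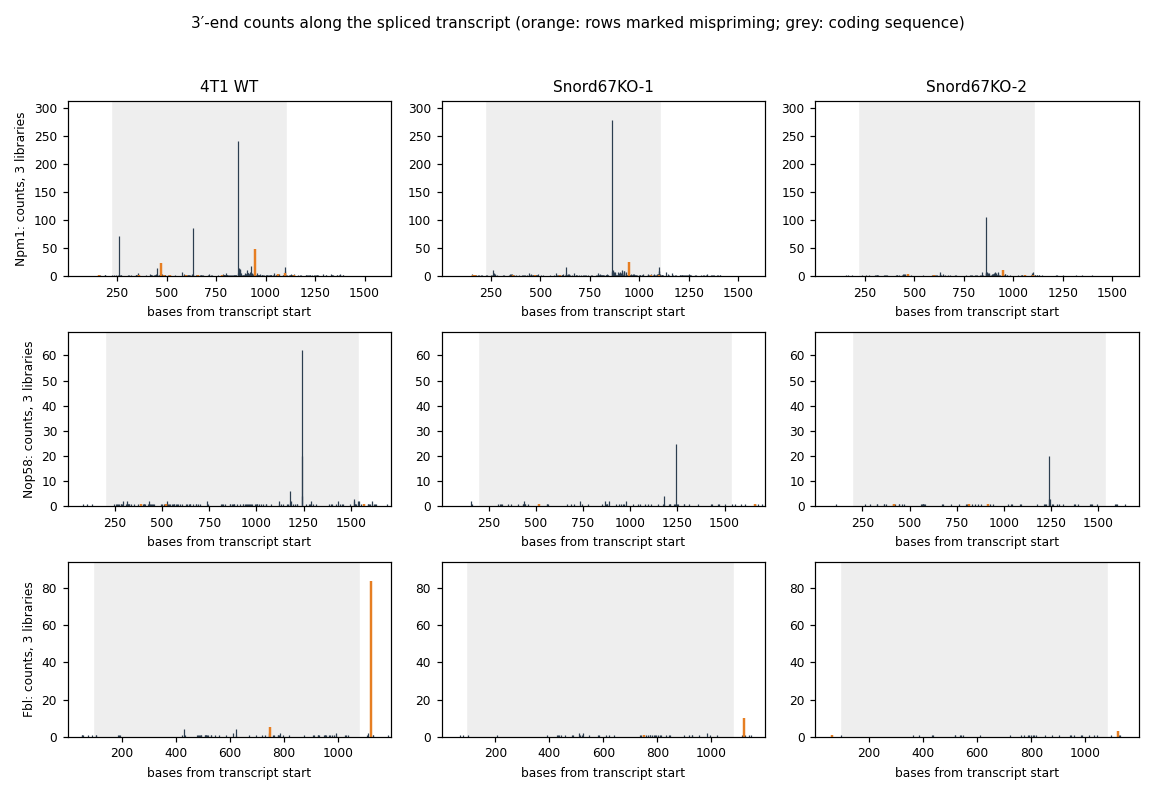
Counts summed over the 3 libraries of each genotype (vertical axis) at each position of the spliced main transcripts of Npm1, Nop58 and Fbl, in bases from the transcript start (horizontal axis). Orange lines are rows marked mispriming and grey is the coding sequence. The tallest Npm1 line, in exon 8, reaches 242, 279 and 106 counts in WT, Snord67KO-1 and Snord67KO-2, and the marked Fbl line in exon 9 reaches 84, 10 and 3.

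The bases that follow these positions in the transcript are shown because marked positions shared them. Over all genes, the 7 bases after a marked position were most often CTGTAGG, and 96.6% of 29179 marked positions with exon sequence matched at least 5 of the 7, against 0.541% of 776904 unmarked positions. The study's supplement lists a 3′ linker that begins with the same 7 bases. Whether reads at such positions arose by priming there was not tested. The sequences are 30 bases of the transcript strand from GENCODE M21 on GRCm38, 5′ to 3′, ending at base 15 with the counted position, and the 7 bases after it are in capitals. The first 4 positions are marked and the next 4 are not.
Fbl, 7:28179194, 5 of 7 match: agatgtgtgttgttaCTGTTGCacgtgtgg
Npm1, 11:33156047, 6 of 7 match: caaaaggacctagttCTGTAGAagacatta
Nolc1, 19:46082856, 6 of 7 match: caactcctaagcaacCTGCAGGcagtaacc
Larp7, 3:127544168, 5 of 7 match: agaaatggaaacagaCTGTAAAgcgcctac
Nop58, 1:59705721, 6 of 7 match: tttatcatgcttctcTTGTAGGccagtcaa
Npm1, 11:33156692, 3 of 7 match: ccaaaatggaaaagaCTTAAAAccatcaac
Npm1, 11:33160389, 3 of 7 match: ggaggacgtaaaactCTTAGGCatgtctgg
Npm1, 11:33162947, 3 of 7 match: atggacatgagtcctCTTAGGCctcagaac

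The Nop58 position, though unmarked, was followed by 6 of the 7 bases. The last 2 Npm1 positions, in exons 5 and 1, were added after their values were seen, as the unmarked Npm1 positions next in count. Position 33160389 had 16, 69 and 2 counts in WT, 2, 8 and 6 in Snord67KO-1, and 1, 3 and 3 in Snord67KO-2, and position 33162947 had 3, 68 and 1, then 7, 4 and 0, then 0, 0 and 1. WT replicate 2 was the highest library at both. The 3 unmarked Npm1 positions with the most counts were all followed by CTTA, which is the start of CTGTAGG with the third base left out. CTTA was read off these 3 positions after their values were seen, so it is a description with no test. None of the other unmarked Npm1 exon positions with counts, of 904 in all, was followed by it on the transcript strand, and over all genes 0.409% of unmarked and 0.250% of marked positions were.

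Among all members, unmarked positions with at least 5 of 7 matching bases numbered 12 and held 146 counts, of which 107 were the Nop58 position, and marked ones numbered 41 with 340 counts. In the other genes the highest marked position was minor. Nolc1 position 46082856, marked, in the coding sequence of exon 10, had 3, 6 and 1 counts in WT, 1, 1 and 0 in Snord67KO-1, and 1, 1 and 1 in Snord67KO-2. The share of counts at marked rows over the 9 libraries was 37.3% for Fbl, 13.5% for Larp7 and 10.9% for Nolc1, and between 0.971% (Ruvbl2) and 5.36% (Ncl) for the other 6. With marked rows left out, the same 5 members were called lower in Snord67KO-1.

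Most counts of these genes lay in annotated exons. Per library, 2.59% to 4.90% of the counts of the 9 genes lay outside every annotated exon of their gene, against 47.3% to 64.6% over all genes other than the rRNA gene Rn45s. Coding sequence of the main transcript held 80.9% of Npm1 counts and 88.3% of Ruvbl2 counts, but 28.6% for Ncl, where the 3′ UTR held 71.1%. In Fbl the 3′ UTR held 39.8%, which includes the marked position. Nop56 and Nop58 had 26.3% and 12.7% of their counts in exons of other transcripts alone, and 11.3% and 9.93% in introns. These shares include 3′ ends inside snoRNAs that lie within both genes. Rows named Nop56 in or next to the snoRNA Gm23650 held 71 counts, while 33 Nop56 counts were classed as intronic. Most of the Gm23650 ends were therefore counted in annotated exons.

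**Figure D4:**
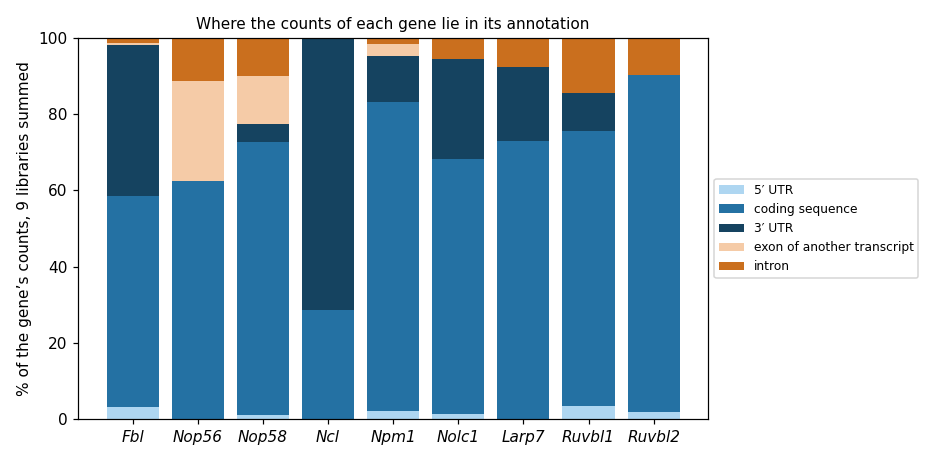
Share of the counts of each gene, summed over 9 libraries, in the 5′ UTR, coding sequence and 3′ UTR of its main transcript, in exons of other transcripts and in introns (vertical axis, percent). Coding sequence is the largest part in each gene but Ncl, and introns reach 14.5% in Ruvbl1.

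The intronic share was compared between the 6 knockout and 3 WT libraries for the 4 members with at least 10 counts in every library. The test treated the 6 knockout libraries as replicates, although they come from 2 single clones. Its p therefore does not cover the spread between clones. In Npm1 it was 2.05% ± 0.276 in WT (n = 3) and 1.19% ± 0.444 in the knockouts (n = 6; two-sided exact permutation test, p = 0.0476, adjusted p = 0.190 over 4 genes). In Nop58 the shares were 6.59% ± 2.84 and 12.5% ± 6.70 (exact p = 0.119, adjusted p = 0.238), and in Nop56 11.3% ± 6.69 and 12.1% ± 7.001 (exact p = 0.976, adjusted p = 1.00). The shares of these 2 genes include 3′ ends inside snoRNAs that lie in their introns. Without positions inside another annotated gene, Nop58 had 4.62% ± 2.15 and 7.11% ± 6.02 (same exact test, p = 0.571). Nop56 then had too few counts to be tested. Ncl had no count outside annotated exons in any library, over rows that cover only its last 2 exons. Its test could therefore show no difference, though the adjustment counted it as 1 of the 4. None of the others passed after adjustment, and 1 had an unadjusted p under 0.05.

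Several members are themselves host genes of snoRNAs, which lie in their introns. Nop56 contains 5 (Snord110, Snord57, Gm23187, Gm23650 and Gm24451), Nop58 contains 4 (Snord70, Snord11, Gm26287 and Gm26293) and Ncl contains 3 (Snora75, Snord82 and Gm24148). Rows named Nop56 within Gm23650 (130277697 to 130277766) or 1 base beyond it held 71 of the 293 Nop56 counts, with 10, 8 and 8 in WT, 10, 7 and 4 in Snord67KO-1, and 3, 7 and 14 in Snord67KO-2. Snord110 (130275506 to 130275573) held 29, of which 14 were from WT, 10 from Snord67KO-1 and 5 from Snord67KO-2. The highest unmarked Nop56 position, 130275526, lies inside Snord110 and had 1, 7 and 0 counts in WT, 4, 2 and 0 in Snord67KO-1, and 0, 0 and 1 in Snord67KO-2. The 4 snoRNAs of Nop58 held between 5 and 12 counts each.

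Other genes of the pathway were taken from a list of 64, of which 41 were tested. The list was made with earlier results of these data known, so its shares beside all genes are a description. In Snord67KO-1 9 were lower and 2 higher, where 7.73% of all genes were called lower and 10.3% higher, with a median log2 change of -0.63 against -0.03 over all genes. For the average of both clones 10 were lower and 1 higher, where 5.39% of all genes were lower and 6.18% higher. In Snord67KO-2 1 was lower and none higher, where 0.747% of all genes were lower and 2.37% higher. The nucleolar proteins of pre-rRNA processing, 24 of the 41 genes tested, had 8 lower in Snord67KO-1 and none higher, beside 7.73% of all genes lower: Nop2, Pes1, Wdr12, Ddx21, Gnl3, Nat10, Dkc1 and Rrp1b. Pes1 and Wdr12, partners in a complex of large subunit maturation, fell from 95.2 ± 6.01 to 35.2 ± 4.13 CPM and from 59.3 ± 17.5 to 21.7 ± 2.43 CPM, by 1.41 ± 0.26 and 1.41 ± 0.28 on the log2 scale (edgeR, adjusted p = 0.00198 and 0.00288). The helicase Ddx21, which had the most counts of this group, fell from 126 ± 39.5 to 51.4 ± 15.1 CPM, by 1.28 ± 0.28 (adjusted p = 0.00543). For the average of both clones Ddx10 and Utp15 were called and Gnl3 was not. Without marked rows Ddx10, Utp15 and Pes1 were not called for the average (log2 changes -0.81, -0.63 and -0.62, edgeR, adjusted p = 0.0741, 0.257 and 0.151), and of the 9 fits that left out 1 library Ddx10 was called in 3 and Utp15 in 2. DESeq2 did not call Ddx10, Utp15, Nop2, Wdr12 or Ddx21 for the average (adjusted p from 0.0547 to 0.161). In Snord67KO-1, DESeq2 did not call Nop2, Gnl3 or Rrp1b (adjusted p = 0.0592, 0.163 and 0.0765). With annotated exons only, the Snord67KO-1 calls of Nop2 and Gnl3 were also lost (edgeR, adjusted p = 0.0615 and 0.128). Pes1 kept its Snord67KO-1 call in all fits that left out 1 library, and so did Wdr12, which missed it without marked and matching positions (-0.79, adjusted p = 0.0718) and with each position counted at most 1 time per library (-0.68, adjusted p = 0.0696). Counting each position at most 1 time also took Dkc1 to -0.65 (adjusted p = 0.0765), Nat10 to -0.65 (adjusted p = 0.117) and Rrp1b to -0.89 (adjusted p = 0.0764), and leaving out marked and matching positions took Nat10 to -0.66 (adjusted p = 0.256). Ddx21 missed it without Snord67KO-1 replicate 1 (-1.03, adjusted p = 0.0532), and Nop2, Gnl3, Nat10, Dkc1 and Rrp1b each missed it in 2 or more of the 9 fits that left out 1 library, those without Snord67KO-1 replicate 1 or 3 among them.

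Among other core proteins and assembly factors of the box C/D snoRNP, 1 of 7 tested was lower and 1 higher in Snord67KO-1, near the 7.73% and 10.3% of all genes. Nufip1, which brings the core proteins together, was the only gene of the list called in Snord67KO-2 as well. It had 52.0 ± 20.3 CPM in WT, 22.6 ± 7.07 CPM in Snord67KO-1 and 11.4 ± 4.87 CPM in Snord67KO-2, log2 changes of -1.21 ± 0.33 and -2.11 ± 0.45 (edgeR, adjusted p = 0.0203 and 0.0171). Without marked rows these were -0.88 and -1.51 and did not pass (edgeR, adjusted p = 0.0724 and 0.0699). The Snord67KO-2 call was lost on leaving out any library of that clone (adjusted p from 0.0727 to 0.110). That in Snord67KO-1 was lost without its replicate 1 or 3 or WT replicate 2 (0.0602 to 0.108). It was also lost with DESeq2 (log2 change -1.19, adjusted p = 0.079). The chaperone Hsp90ab1 went the other way, from 521 ± 89.4 CPM in WT to 820 ± 139 in Snord67KO-1 (log2 change 0.69 ± 0.20, adjusted p = 0.0283). At 825 ± 53.5 CPM it did not pass in Snord67KO-2 (edgeR, adjusted p = 0.0923), and the Snord67KO-1 call was lost without WT replicate 2 or any library of that clone (adjusted p from 0.0508 to 0.131).

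In the H/ACA snoRNP, which places pseudouridines, 1 of 4 tested genes was lower in Snord67KO-1, beside 7.73% of all genes. It was the pseudouridine synthase Dkc1, which is also 1 of the 8 nucleolar genes above, at 71.5 ± 31.3 CPM in WT and 28.7 ± 8.37 in Snord67KO-1 (log2 change -1.33 ± 0.31, edgeR, adjusted p = 0.00857, lost without replicate 1 or 3 of that clone at 0.05003 and 0.05198). Of 7 tested genes around U6 and 7SK, 1 was higher in Snord67KO-1, near the 10.3% of all genes called higher, and no other was called. It was Sart3, which recycles U6 (76.2 ± 16.0 CPM in WT and 118 ± 18.3 in Snord67KO-1, log2 change 0.67 ± 0.22, edgeR, adjusted p = 0.0432). The Sart3 value fell to 0.09 with annotated exons only (adjusted p = 0.911), and was called in 1 of 9 fits that left out 1 library. DESeq2 did not call Sart3 in Snord67KO-1 (adjusted p = 0.1415).

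The genes whose log2 CPM over the 9 libraries was most like the mean of the 8 tested members were Thumpd3 (Pearson r = 0.975), Cnbp (0.972), Cdkn2aipnl (0.966), Myc (0.953) and Cpsf2 (0.947). These r are a description over 9 libraries that share their genotypes and depth. Myc, a transcription factor, had 146 CPM in WT, 34.6 CPM in Snord67KO-1 and 84.1 CPM in Snord67KO-2, and Cnbp had 246, 104 and 229 CPM. Both had their lowest mean in Snord67KO-1, as did Fbl, Nop56, Nop58, Ncl, Nolc1 and Npm1, although Npm1 was not called lower there. Since Myc and Cnbp were chosen for their likeness to the members, their low values in that clone follow from the choice.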

How the data were processed

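RibOxi-seq was performed by the authors on poly(A)-enriched RNA with 3 biologic replicates per genotype. Of 18 samples, the 9 oxidized libraries have a column in the table used here. The 9 control samples were not analysed here. Per the study's methods, adapters and the 3′ linker were trimmed with cutadapt, read pairs were merged with pear, and merged reads were aligned with the genome index of the study's RNA-seq or to sequences of U6 and rRNA. The submitters' processing notes name STAR and mm10, while the methods name m39. The deposited counts are read 3′ ends per genomic position, not normalized, and PCR copies are not marked. The meaning of the mispriming column and how multiply mapping reads were counted are not given in the sources used here, so genes with close copies are uncertain. Positions fitted GENCODE M21 on GRCm38, from which exons and sequences were read.

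Counts of all rows of a gene were summed. Genes that reached 10 counts in 3 or more libraries were tested with edgeR's quasi-likelihood test after TMM normalization, in 1 fit of the 9 libraries with a common biological coefficient of variation of 0.221, and adjusted over all genes (threshold 0.05). CPM used library totals times TMM factors. Positions were tested against the remaining counts of their gene (log offset, 1 added, 50 or more such counts required). Intronic shares used exact permutation tests. The tests were tested on simulated data with 200 changed genes. Replicates were not duplicates of each other: their pairs exceeded counting noise (chi-square per degree of freedom 1.56 to 17.0). Named were all members, their highest marked and unmarked positions, positions past the filter, list genes called or highest in their group, and the 5 genes most like the members. The members and lists were chosen with earlier results of these data known. Alternatives covered normalization, filters, DESeq2, marked rows, Rn45s, exons, a replicate block and each library left out. R 4.3.3, edgeR 4.0.16, limma 3.58.1, DESeq2 1.42.0 and Python with scipy were used.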

Additional observations from a re-analysis of the deposited data

Results flagged for a closer look

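Nop56 stood out because its change against WT differed between the clones: it was 1.5048 higher on the log2 scale in Snord67KO-2 than in Snord67KO-1 (edgeR, adjusted p = 0.00874), in all 3 libraries of one clone against all 3 of the other. Rows inside the stretch of a member but named for another gene stood out as counts outside the gene totals, above the floor of 3 counts, and no control library was analysed beside them. Inside Ncl, Gm24148 held 39 counts, with 4, 7 and 11 in WT, 4, 2 and 5 in Snord67KO-1, and 2, 3 and 1 in Snord67KO-2, and Snord82 held 32, with 6, 3 and 5, then 5, 2 and 3, then 0, 4 and 4. Inside Nop56, Snord57 held 13 counts, of which 7 were from WT, 1 from Snord67KO-1 and 5 from Snord67KO-2. Inside Ruvbl2, 4 counts were named for Gys1, 1 of them in WT. Dixon's test over the 6 knockout libraries flagged no library of any member. It pooled both clones, so a difference between clones widens the range, as for Nop56. It is therefore a weak check for a library that stands apart within its clone.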

How the results depend on the processing

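The counts of members called depended on the libraries used. For the average of both clones, 2 members were called, 1 with DESeq2 and 4 (Ncl, Nolc1, Nop56 and Nop58, without Fbl) when each position was counted at most 1 time per library, and 0 to 3 when 1 library was left out (0 without Snord67KO-2 replicate 3, 3 without Snord67KO-1 replicate 2). In Snord67KO-1 the count was 5, and 2 to 5 when 1 library was left out, the lowest without Snord67KO-1 replicate 1 (Nolc1 and Nop56). Between the clones it was 1, and 3 with each position counted at most 1 time, 2 without marked positions and those with 4 or more of 7 matching bases, and 0 to 3 when 1 library was left out (0 without Snord67KO-2 replicate 2, 3 without WT replicate 2). In Snord67KO-2 it was 0 under every alternative. The alternatives on single positions, on matching bases and on CPM without TMM factors were chosen after seeing the data. The cause of these shifts was not tested.

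Changes of direction occurred for Npm1, Ruvbl1 and Ruvbl2 alone, of which none was called. For the average of both clones the log2 change of Npm1 became 0.0006 with DESeq2 size factors, 0.0652 with annotated exons only and 0.0674 with each position counted at most 1 time, and ran from -0.073 to 0.0454 when 1 library was left out. That of Ruvbl1 became -0.0484 without marked rows, -0.0382 with each position counted at most 1 time and -0.1321 without matching positions, and ran from -0.18 to 0.4251. In Snord67KO-1, Npm1 became 0.0033 with annotated exons only, and Ruvbl2 became -0.0148 without marked rows and -0.0312 without matching positions, and ran from -0.0064 to 0.2969. In Snord67KO-2, Npm1 became -0.0001 with no filter on low counts, -0.0581 without marked rows and -0.1619 without matching positions, and Ruvbl1 ran from -0.3983 to 0.2088. Between the clones Ruvbl2 ran from -0.0062 to 0.4155. Of 574 log2 changes recomputed, 514 kept direction and call.

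Over all genes, 728, 1133, 196 and 242 were called for the average, for each clone against WT and between the clones. With DESeq2, which gave no adjusted p for 2318 genes in Snord67KO-2 and 976 between the clones, there were 389, 575, 144 and 115, and with no filter 1077, 2056, 435 and 462, where the median change of all genes moved to 0.11, 0.37, 0.00 and -0.44. With no filter, 372 were higher and 705 lower for the average (389 and 339 with it), and 154 and 281 in Snord67KO-2 (149 and 47). Annotated exons only gave 722 in Snord67KO-1 and 80 between the clones, and each position counted at most 1 time 431 and 714 in Snord67KO-2 and between the clones. Without marked rows 367 were called between the clones, and without matching positions 426. Leaving out 1 library gave 422 to 766, 429 to 1071, 49 to 309 and 49 to 465.

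The replicate numbers share no stated origin, and same-numbered libraries did not deviate together throughout (r from -0.153 to 0.335). The main fit therefore did not pair them. Between WT and Snord67KO-1, however, r was 0.335 and 0.287 for numbers 2 and 3, and -0.388 and -0.28 when these were crossed. For number 1 it was -0.073. Whether the numbers mark a shared batch was not tested. With the number as a replicate block, 858, 1234, 255 and 265 genes were called, and of the members Nop58 was added for the average (log2 change -0.60, edgeR, adjusted p = 0.0455), with no other member call changed.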
